A study of Mus musculus with 18 samples.

Results

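The probes described here fell step by step in the forelimb digit tips of wild-type mouse embryos between E14.5 and E18.5 (days after mating), and stayed near the wild-type level in embryos without Fzd6. Of the 42006 probes on the array, 415 met the rule, which is 0.988% of all probes and 1.63% of the 25477 probes detected at wild-type E14.5. A probe is a 60-base oligonucleotide, and detected means that its Cy3 signal was well above background on all 3 wild-type E14.5 arrays. The value of a probe is log2 of the processed Cy3 signal over the processed Cy5 signal. A member had to fall by at least 1.5 on that scale from E14.5 to E18.5 in the wild type, by at least 0.3 in each step through E16.5, and be detected. Its Fzd6-/- mean had to lie within 1 of the wild-type mean at all 3 stages. These measured values chose the members, so the wild-type fall and the Fzd6-/- minus wild-type differences are descriptions and carry no test.

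There were 6 groups of 3 arrays each, 18 in all: wild type (WT) and Fzd6-/- (KO), each at 3 stages, namely E14.5, then E16.5, then E18.5. All embryos were C57BL/6 offspring of crosses between Fzd6+/- mice, the labels give mixed sex, and the design text speaks of 3 mice per genotype and stage, with forelimb RNA from each embryo. Every array carried digit-tip RNA in Cy3 (green) and, in Cy5 (red), a common reference made of RNA from 11 cell lines and 129ES embryonic stem cells. The probe of Fzd6 could not be picked out, so neither the genotype nor the tissue was checked against its own genes.

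Frizzled receptors sit in the cell membrane and bind Wnt ligands, and Frizzled 6 is best known for planar polarity, the alignment of cells and hairs within the plane of an epithelium. Mice without it have disordered hair whorls and abnormal claws, and loss of the human gene causes a nail disorder. Over the stages sampled, the mouse digit tip forms a nail field and its epidermis stratifies. In bulk tissue, fewer cells of a type and less RNA per cell cannot be told apart. The labels do not say how many embryos went into an array, so p-values measure the spread between these samples.

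No source used here pairs the array's probe IDs with genes, and the chromosome column reads unmapped for every probe, so members are named by ID and shown by sequence. None of the 60-base sequences shared 30 bases with a RefSeq promoter window. The first set of sequences shows probes with shared bases, so that the values of probes with like sequences can be set side by side. Capitals mark the run of bases that a probe shares with the probe it is listed with, 5′ to 3′ as the array lists it. Z00075336-1 and Z00077063-1, both members, share 53 bases.
Z00075336-1: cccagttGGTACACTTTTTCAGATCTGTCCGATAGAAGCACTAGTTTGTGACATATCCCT
Z00077063-1: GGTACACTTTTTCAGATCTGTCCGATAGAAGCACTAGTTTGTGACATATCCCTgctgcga
Z00023674-1 and Z00074919-1, both members and among the steepest, share 23 bases.
Z00023674-1: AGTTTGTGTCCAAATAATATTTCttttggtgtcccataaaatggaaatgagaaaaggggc
Z00074919-1: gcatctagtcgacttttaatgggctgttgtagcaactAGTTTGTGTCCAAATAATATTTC
The member Z00075782-1 shares 48 bases with Z00025464-1, which missed the rule.
Z00075782-1: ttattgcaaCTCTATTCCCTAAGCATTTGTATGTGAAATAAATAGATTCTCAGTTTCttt
Z00025464-1: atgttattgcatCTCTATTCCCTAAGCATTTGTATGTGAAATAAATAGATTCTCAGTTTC
The member Z00062305-1 has the same 60 bases as Z00025860-1, which also missed the rule.
Z00062305-1: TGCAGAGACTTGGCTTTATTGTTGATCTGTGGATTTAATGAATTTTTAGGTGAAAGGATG
Z00025860-1: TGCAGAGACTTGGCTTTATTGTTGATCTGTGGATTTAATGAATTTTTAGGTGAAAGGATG

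The second set shows members that the values below turn on: the 4 used as examples of a large fall, and the member furthest below WT in KO at E14.5 and E16.5.
Z00023793-1: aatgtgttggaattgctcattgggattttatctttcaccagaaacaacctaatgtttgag
Z00056592-1: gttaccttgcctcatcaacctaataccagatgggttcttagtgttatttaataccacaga
Z00074154-1: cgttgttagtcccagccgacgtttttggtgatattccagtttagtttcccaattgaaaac
Z00020599-1: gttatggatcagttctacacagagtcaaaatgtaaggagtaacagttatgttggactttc
Z00025532-1: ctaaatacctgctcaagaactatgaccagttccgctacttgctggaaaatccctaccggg

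The members' probe sequences were poorer in G and C than those of other probes. Their median GC content was 40% (20% to 70%), against 45% over the detected probes. The hexamer AATAAA, the usual polyadenylation signal near the end of a messenger RNA, stood on the listed strand of 48 of 415 member probes (11.6%). It stood in 7.85% of detected probes and 6.93% of all probes. Its reverse complement TTTATT was in 2.65% of members and 3.24% of detected probes, and the variant signal ATTAAA was in 2.89% and 3.40%. The pentamer ATTTA, the core of AU-rich elements, which can overlap these hexamers, was in 10.4% and 7.43%. These are matches of letters within the probe, not sites. Members also gave dimmer Cy5 signals, with a median log2 signal over all arrays of 7.50 against 10.1 for detected probes, and 283 of 415 were well above background in Cy5 on all 18 arrays. Without the limit on KO minus WT, 723 probes met the rule, with a median GC content of 41.7% and a median Cy5 signal of 6.83. GC content and Cy5 brightness therefore move with membership, though not with membership alone, and their part in the pattern was not tested.

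Each array showed 59.8% to 69.2% of its probes clear of background in Cy3, with 0 saturated Cy3 spots. WT E18.5 replicate 1 stood apart from its group: 255 probes lay over 2-fold above and 682 over 2-fold below both other arrays, and without it the rule gave 439 members, 365 of them shared. Leaving out WT E18.5 replicate 3, where the median member was lowest in its group (-0.71), gave 372 members, 318 of them shared. WT E16.5 replicate 2 stood apart to a lesser degree, with 114 probes above and 139 below. The first scan batch held replicates 1 and 2 of every group, and the other held replicate 3. At E16.5 and at E18.5 no slide held both genotypes, so genotype and slide cannot be told apart at those stages. WT E14.5, E16.5 and E18.5 replicate 3 shared slide 4 with KO E14.5 replicate 3. No KO E14.5 array shared a slide with a KO E16.5 or E18.5 array. Stage and slide therefore cannot be told apart in KO changes from E14.5. WT E18.5 replicates 1 and 2 lay on another slide than the earlier WT replicates 1 and 2.

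The members began well above the reference and ended near or below it. On the 3 WT E14.5 arrays the median member stood at 1.499, 1.53 and 1.53, on the WT E16.5 arrays at 0.57, 0.17 and 0.48, and on the WT E18.5 arrays at -0.36, -0.26 and -0.71. Every array of a WT stage lay below every array of the stage before. KO arrays gave medians of 1.52, 1.36 and 1.61 at E14.5, 0.88, 0.59 and 0.77 at E16.5, and -0.29, -0.33 and -0.14 at E18.5. On these processed signals the 3 KO E16.5 arrays were all above the 3 WT E16.5 arrays, narrowly (0.59 against 0.57 at the closest). The genotypes overlapped at E14.5 and at E18.5. The Cy5 reference hardly moved for the median member: from WT E14.5 to E18.5 it changed by 0.09 in Cy5 and by -1.76 in Cy3. Over single members the Cy5 change ran from -1.77 to 1.585 and the Cy3 change from -5.36 to -0.31. The ratio fall was therefore not mainly a Cy3 fall in every member. With normexp background correction and loess normalization in place of processed signals the same medians ran only from 0.63 to 0.79 at WT E14.5 to between -0.16 and -0.03 at WT E18.5, so the size of the fall depends on the processing, while the order of the stages held for these medians. The E16.5 medians on those ratios were 0.26, 0.02 and 0.16 in WT and 0.42, 0.22 and 0.32 in KO, so there the genotypes overlapped at E16.5 too. On those ratios the rule chose 213 probes, 124 of them among the 415.

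**Figure D1:**
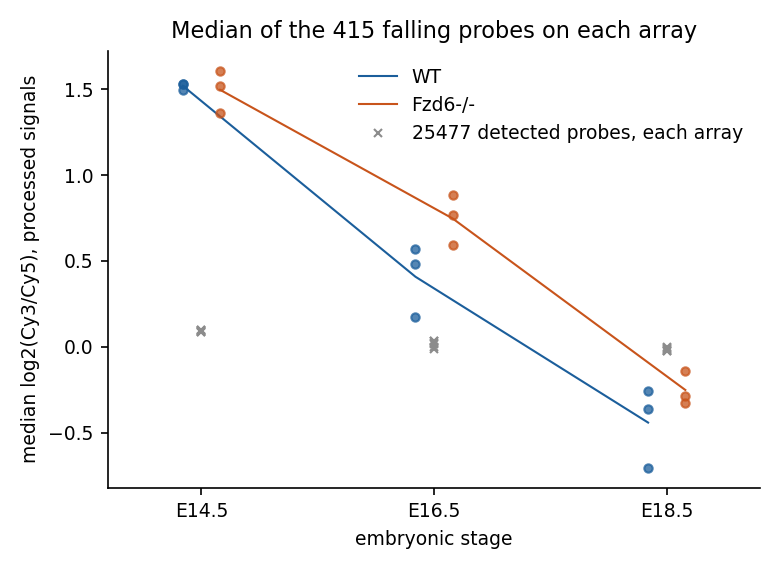
The vertical axis gives the median log2(Cy3/Cy5) of the 415 falling probes on each of the 18 arrays (points, 3 per group) at each stage, with lines through the group means for WT and Fzd6-/-; crosses are medians of the 25477 detected probes. The KO points at E16.5 (0.59 to 0.88) lie above the WT points (0.17 to 0.57).

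In WT group means of processed signals the fall was larger in the first step than in the second, which not every replicate showed. The median member changed by -1.09 from E14.5 to E16.5, by -0.85 from E16.5 to E18.5 and by -1.86 over both, with a range from -4.01 to -1.501. The median detected probe changed by -0.14 over the same span. Of the 415 members 154 fell by at least 2 and 24 by at least 3. By E16.5 the median member had gone through 55.5% of its WT fall, and in 270 members the first step was the larger one.

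In KO tissue the members fell about as far, with a later share of the fall. For the first KO step and the whole KO fall, stage and slide cannot be told apart. The median KO change over both steps was -1.82 (-5.69 to -0.27), made of -0.78 in the first step and -1.02 in the second. With normexp and loess the KO array medians were 0.63 to 0.80 at E14.5, 0.22 to 0.42 at E16.5 and -0.10 to -0.02 at E18.5. The larger second KO step was not clear on those ratios. By E16.5 the median member had gone through 42.7% of its KO fall, and the first step was the larger one in 134 members. The first step was smaller in KO than in WT for 331 of 415 members. Of all members 276 fell by at least 1.5 in KO, 333 fell by at least 0.3 in both KO steps, and 250 met every condition set for the wild type. The first KO step was above 0 in 20 members. The rule asks for a first WT step of at least 0.3 and sets no limit on a KO step itself. Its limit of 1 on KO minus WT at each stage still ties the KO changes to the WT changes. The size of the KO fall and these counts therefore partly follow from the choice.

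Arrays left out of the choice showed the fall too. When the rule was applied to replicates 1 and 2 of every group it chose 311 probes, which were then read in replicate 3. In WT replicate 3, whose 3 arrays shared a slide, 304 of the 311 fell from E14.5 to E18.5 (97.8%, against 57.5% of detected probes), with a median change of -2.05, and 259 fell by at least 1.5 (83.3% against 6.16%). In KO replicate 3, whose E14.5 and E18.5 arrays lay on separate slides, 307 of 311 fell (98.7%, against 60.5% of detected probes). The median KO change was -1.97, and 221 fell by at least 1.5 (71.1% against 4.01%). Read in replicate 2, 99.6% of the 479 probes chosen on replicates 1 and 3 fell in WT, against 58.3% of detected probes. Read in replicate 1, 97.9% of the 474 chosen on replicates 2 and 3 fell in WT, against 57.7%. Replicates 1 and 2 of each group shared a slide, so only the replicate 3 reading came from slides not used in the choice. With 1 array per group in each reading there is no test.

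**Figure D2:**
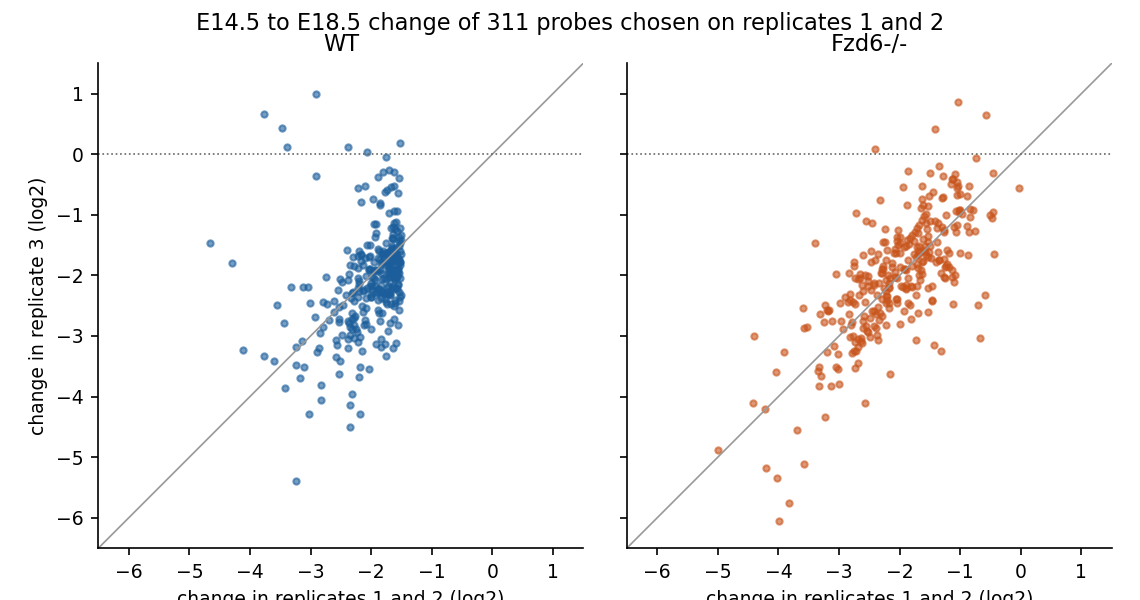
Each point is 1 of the 311 probes chosen on replicates 1 and 2, with its log2 change from E14.5 to E18.5 in those replicates (horizontal) and in replicate 3 (vertical), for WT on the left and Fzd6-/- on the right. The diagonal marks equal change, and 304 WT points and 307 KO points lie below the dotted line at 0.

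KO levels were above WT levels at E16.5 for most members. The median KO minus WT difference was 0.09 at E14.5, 0.42 at E16.5 and 0.20 at E18.5, against 0.02, 0.04 and -0.0024 over the detected probes. Over the 723 probes that met the rule without its limit on KO minus WT, members included, it was 0.01, 0.48 and 0.31. The E16.5 difference was thus not particular to the members. KO was above WT in 253 members at E14.5, 353 at E16.5 and 271 at E18.5. It was above at all 3 stages in 152 members and below at all 3 in 13. At E16.5 the difference held within scan batches, with medians of 0.46 and 0.46 for replicates 1 and 2 taken alone and 0.33 for replicate 3. At E18.5 it did not: the same medians were 0.04, -0.08 and 0.46. At E14.5, where both genotypes of replicate 3 shared slide 4, that replicate gave a median of 0.11, with KO above WT in 249 of 415 members. Leaving out WT E16.5 replicate 2, the lowest WT array at that stage, brought the E16.5 median to 0.31, and normexp with loess to 0.25.

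The E16.5 difference was also present on arrays left out of the choice. In replicate 3 KO was above WT at E16.5 in 255 of 311 probes (82.0%, against 54.7% of detected probes), with a median difference of 0.44. The readings of replicate 2 and replicate 1 gave 83.9% and 76.6% (against 54.8% and 53.6% of detected probes). At E14.5 the share was 67.2% in replicate 3, 51.8% in replicate 2 and 68.4% in replicate 1 (against 52.8%, 50.8% and 52.7%). The E18.5 shares were 65.3%, 38.2% and 47.0% (against 52.45%, 48.06% and 46.95%), so the left-out arrays gave no common direction there. Slide and genotype cannot be told apart at E16.5 in any of these readings. The replicate 1 and 2 readings also share their slides with arrays that made the choice.

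**Figure D3:**
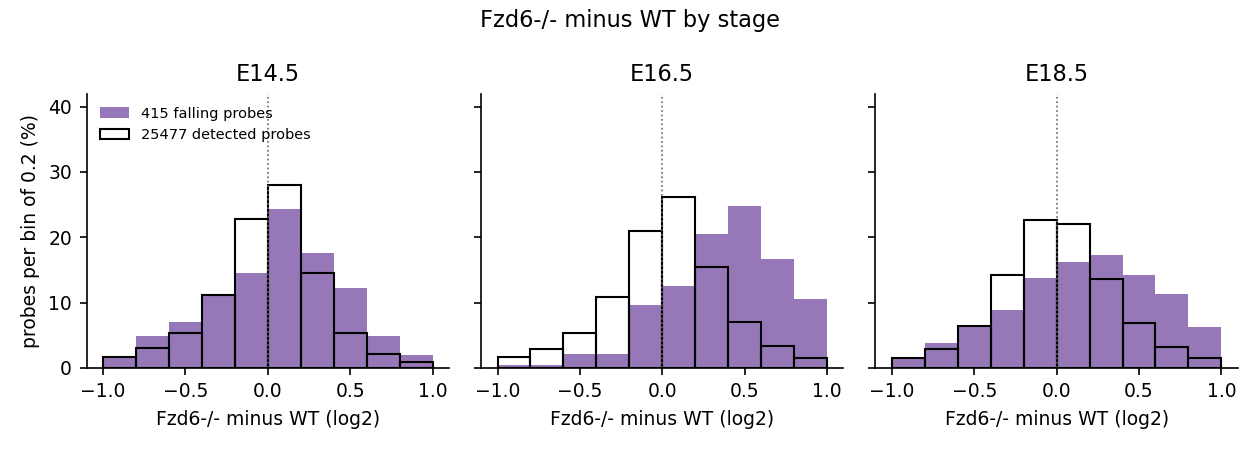
Each panel gives, for 1 stage, the percentage of the 415 falling probes (filled) and of the 25477 detected probes (outline) in bins of 0.2 of the Fzd6-/- minus WT log2 difference, cut at the rule's limits of -1 and 1, outside which 4.88% to 5.24% of detected probes lie. The filled bars lie to the right of 0 at E16.5, where 353 members were higher in KO.

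A model fitted to all tested probes gave the background for these counts. It used limma on normexp and loess log2 ratios, with Benjamini-Hochberg adjustment over 27989 probes and adjusted p under 0.05 as the call, and all 415 members were tested. From E14.5 to E18.5 it called 360 members lower in WT, where 25.2% of all tested probes were called lower, and 359 lower in KO, where the share was 25.7%. For the first step it called 300 lower in WT (15.6% of tested probes) and 202 lower and 2 higher in KO (11.5% and 12.2%). For the second step it called 124 lower in WT (9.96%) and 226 lower in KO (13.1%). All arrays of WT E14.5 lay above all of WT E18.5 in 412 members, as in 37.4% of tested probes, and the same held in KO for 390 members (37.5%). In 242 members the 3 WT stages were fully separated at both steps (6.74%), and in 217 the 3 KO stages were (11.4%). The rule used these contrasts, or bounded them, so nothing is read from the counts.

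The limit of 1 on the difference also bounded the calls between genotypes. At E14.5 the model called 23 members higher and 8 lower in KO, with 3.72% and 5.22% of tested probes called higher and lower. At E16.5 it called 77 higher and 2 lower (6.08% and 6.14%), and at E18.5 5 higher and 13 lower (5.72% and 3.13%). KO E16.5 arrays were all above WT E16.5 arrays in 150 members and all below in 7, as in 16.8% and 15.4% of tested probes. A difference between genotypes that changed from E14.5 to E18.5 was called upwards in 1 member and downwards in 15 (4.78% and 1.84% of tested probes). Single arrays moved these counts. The E14.5 count of 31 became 13 without WT E14.5 replicate 1, 12 without WT E14.5 replicate 2, 18 without KO E14.5 replicate 1 and 48 without WT E18.5 replicate 1. The E16.5 count of 79 became 40 without WT E16.5 replicate 2, 39 without KO E16.5 replicate 1 and 47 without KO E16.5 replicate 3. The E18.5 count of 18 became 63 without WT E18.5 replicate 2. It fell to 6 to 11 on leaving out any 1 of WT E14.5 replicate 1 (10), 2 (9) or 3 (11), WT E18.5 replicate 1 (8) or 3 (7), or KO E18.5 replicate 1 (9), 2 (6) or 3 (8). The count of 16 for the changing difference became 9 without WT E14.5 replicate 1 or 2 and 46 without WT E18.5 replicate 2.

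The 10 largest WT falls among members detected on all 9 WT arrays ran from -3.66 to -2.99, and their KO changes from -4.15 to -2.20. Z00023793-1 had the largest. It stood at 6.95, 7.33 and 7.48 at WT E14.5, 6.17, 4.79 and 6.60 at E16.5, and 3.82, 3.22 and 3.75 at E18.5. In KO it stood at 7.61, 7.54 and 7.90, then 6.99, 6.12 and 6.94, then 3.79, 3.76 and 4.97. In both genotypes each stage lay wholly below the one before, and at E16.5 and E18.5 the genotypes overlapped. The WT means were 7.25 ± 0.28, 5.85 ± 0.95 and 3.60 ± 0.33 (SD, n = 3), a change of -3.66, and the KO change was -3.50.

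Z00056592-1, the next largest, did most of its falling before E16.5. Its WT values were 8.32, 7.54 and 6.84 at E14.5, 5.24, 5.17 and 4.72 at E16.5, and 4.87, 3.11 and 4.49 at E18.5, so E16.5 and E18.5 overlapped. KO values were 7.11, 6.38 and 6.81, then 4.77, 6.22 and 5.10, then 4.36, 5.03 and 4.32, and again the later stages overlapped. The change was -3.41 in WT and -2.20 in KO.

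Z00074154-1 was higher in KO until E16.5 and level with WT at E18.5. WT values were 2.78, 2.65 and 2.78 at E14.5, 0.59, 0.09 and 0.86 at E16.5, and -0.54, -0.26 and -0.05 at E18.5. KO values were 3.04, 3.40 and 3.17, then 1.58, 1.20 and 1.496, then -0.37, -0.56 and -0.52. KO lay wholly above WT at E14.5 and E16.5 and overlapped it at E18.5, with differences of 0.47, 0.91 and -0.20.

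Z00020599-1 had the highest E16.5 difference of all members, 0.99, just inside the limit. WT values were 3.68, 3.90 and 4.04 at E14.5, 1.99, 1.57 and 2.02 at E16.5, and 0.98, 0.36 and 0.53 at E18.5. KO values were 4.38, 4.14 and 4.26, then 3.14, 2.79 and 2.63, then -0.39, 0.17 and 0.55. The change was -3.25 in WT and -4.15 in KO, and at E18.5 the genotypes overlapped. Of the other 6 largest falls, Z00070459-1 (-3.32 in WT and -3.39 in KO), Z00034237-1 (-3.25 and -3.50), Z00050062-1 (-3.15 and -3.21), Z00053936-1 (-3.02 and -2.72) and Z00040025-1 (-2.99 and -3.02) were higher in KO at all 3 stages, by 0.25 to 0.94. The exception, Z00026155-1 (-3.22 and -2.997), had KO minus WT differences of -0.64 at E14.5, 0.39 at E16.5 and -0.41 at E18.5.

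**Figure D4:**
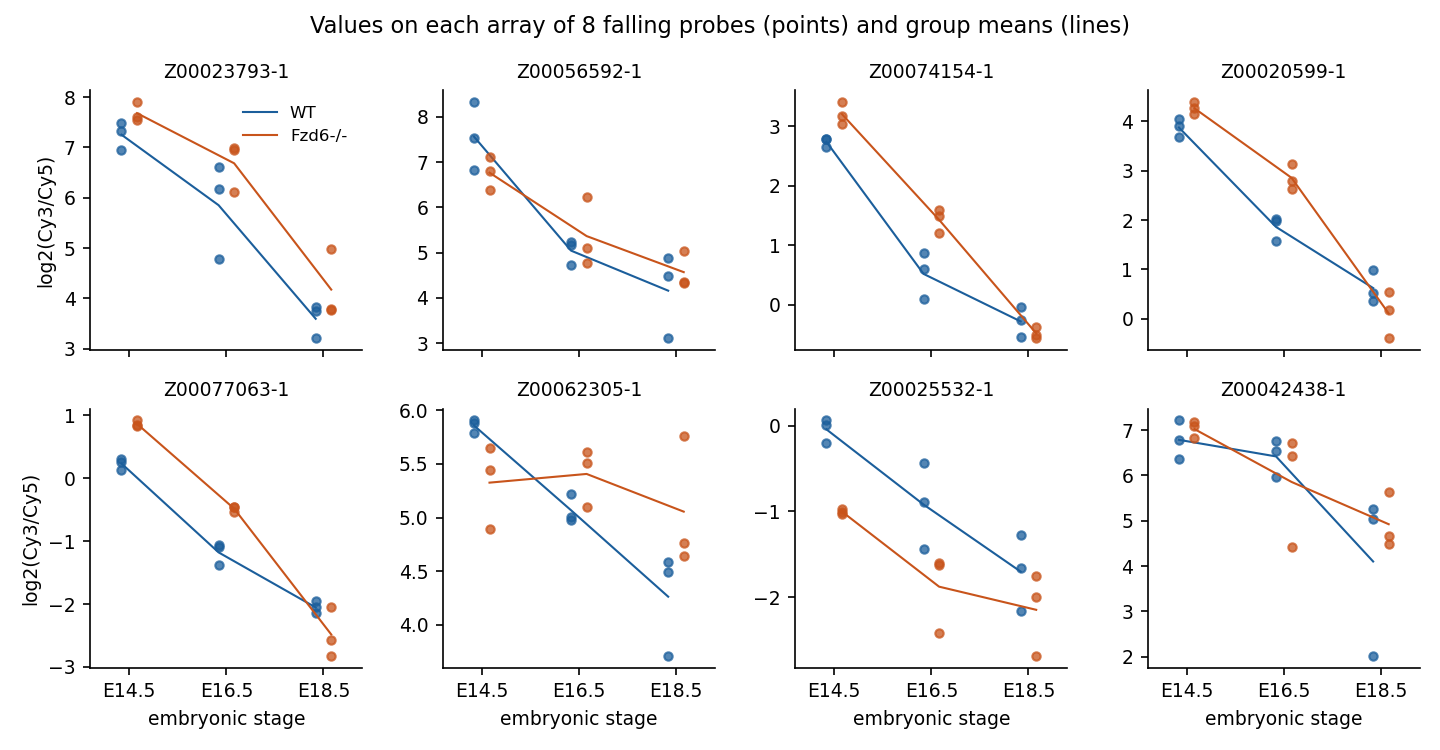
Points are log2(Cy3/Cy5) of 8 falling probes on each array, 3 per group, and lines join the group means of WT and Fzd6-/- over the stages; each panel has its own vertical scale. Z00025532-1 is lower in KO at each stage (-0.96 at E14.5), and the KO values of Z00062305-1 hardly change (-0.27 from E14.5 to E18.5).

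Part of the members dropped out of detection as they fell. All 3 WT E18.5 arrays were well above background for 279 members and none was for 61. In KO E18.5 the counts were 274 and 70. For members not well above background on any E18.5 array a ratio gives no firm size, and the Cy3 signal gives only a bound, taken against the lowest signal among detected probes or the probe's own, whichever was higher. Z00015624-1 had the steepest ratio (-4.01 in WT), from 3.77, 3.79 and 4.09 at E14.5 to -0.04, -0.43 and 0.09 at E18.5. The values -0.04 and 0.09 recurred exactly on the same arrays in other members, such as Z00026222-1, so they are not particular to this probe. None of the WT E16.5 or E18.5 spots of Z00015624-1 was well above background. Its Cy3 signal fell at least 1.68-fold in WT and at least 1.58-fold in KO. Z00058677-1 fell at least 1.40-fold in WT and at least 1.56-fold in KO. Z00074919-1 fell at least 2.69-fold in WT. Its KO value, 5.56-fold, exceeded the fall fitted by the model, 5.40-fold, so it is not used as a bound. The rule used or bounded these contrasts, so no test is given, and without a dye swap the bounds are open to dye bias. Z00041310-1 (-3.85 in WT and -3.78 in KO) was well above background on 2 of 3 WT E18.5 arrays and 1 of 3 KO E18.5 arrays.

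The members highest over the reference at WT E14.5 were Z00056592-1, Z00023793-1, Z00042438-1, Z00004371-1 and Z00061198-1, an order that says nothing of which RNA is more abundant. Z00004371-1 stood at 6.59, 6.60 and 6.31 at WT E14.5, 5.74, 5.88 and 5.21 at E16.5, and 4.47, 4.66 and 4.81 at E18.5, with no overlap between stages, and changed by -1.85 in WT and -1.93 in KO. Z00061198-1 changed by -1.65 in WT and -1.31 in KO, with a first KO step of 0.13. For Z00042438-1 the size of the fall rests on 1 array: its WT E18.5 values were 2.01, 5.26 and 5.03, with replicate 1 far below the others, and its WT change of -2.69 became -1.64 without that array. At WT E14.5 338 of the 415 members were above the reference, and at WT E18.5 166 were.

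Some members changed less in KO than in WT, within the limit on the difference. Z00062305-1 stood at 5.79, 5.91 and 5.88 at WT E14.5, 5.22, 5.01 and 4.97 at E16.5 and 4.49, 4.59 and 3.71 at E18.5, a change of -1.60. In KO it stood at 5.44, 4.89 and 5.64, then 5.61, 5.10 and 5.51, then 4.76, 4.64 and 5.76, a change of -0.27 with all stages overlapping. Z00056914-1 changed by -1.88 in WT and by -0.51 in KO, from 0.75, 1.34 and 1.91 at KO E14.5 to 0.29, 1.04 and 1.14 at KO E18.5. Z00072965-1 and Z00073710-1, which share 56 bases, changed by -1.56 and -1.72 in WT and by -0.45 and -0.50 in KO. Z00022435-1 changed by -1.89 in WT and -0.78 in KO, and Z00060818-1 by -1.502 and -0.84.

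Z00025532-1 was the member furthest below WT at E14.5 and at E16.5. It stood at 0.06, 0.01 and -0.20 at WT E14.5 and at -0.97, -1.03 and -1.01 at KO E14.5. At E16.5 it stood at -0.43, -1.44 and -0.89 in WT and at -1.62, -2.42 and -1.60 in KO. KO lay wholly below WT at both stages, with a difference of -0.96 each time, and the E18.5 groups overlapped (-1.66, -1.28 and -2.17 against -2.002, -1.76 and -2.69). Its KO signal was well above background on 3 of 3 arrays at E14.5, 2 of 3 at E16.5 and none at E18.5. The other low members at E16.5, Z00025329-1 (-0.85) and Z00054751-1 (-0.70), were well above background on 0 and 2 of 3 KO E16.5 arrays. The lowest at E18.5 were Z00060181-1 (-0.98), Z00048280-1 (-0.98) and Z00009094-1 (-0.97), well above background on 0, 1 and 1 of 3 KO E18.5 arrays.

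The highest KO minus WT differences at E14.5 belonged to Z00035189-1 (0.98), Z00024672-1 (0.96) and Z00025539-1 (0.87). Z00035189-1 stood at 3.01, 3.22 and 3.46 in WT and 4.41, 4.27 and 3.94 in KO at E14.5, without overlap, and at 1.40, 0.83 and 1.41 against 1.02, 1.05 and 1.06 at E18.5, with overlap. It changed by -2.02 in WT and -3.16 in KO. At E16.5 Z00020984-1 (0.98) and Z00015624-1 (0.97) came next to Z00020599-1. At E18.5 the highest were Z00061760-1 (0.97), Z00022435-1 (0.96) and Z00075316-1 (0.95). For Z00061760-1 and Z00060181-1 the WT change turned to 0.03 and 0.11 under normexp with loess, from -1.60 and -1.71, so their direction rests on the processed signals.

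Probes with shared bases allow values from separate spots to be set side by side. In 24 pairs a member shared at least 20 bases with another probe, 10 of them pairs of members. In 10 of the 24, including 1 pair of members (Z00051485-1 and Z00077050-1), aligned bases outside the shared run differed, and whether the probes of a pair read the same transcript was not tested. The WT changes of paired members differed by a median of 0.13 and at most 1.197, the latter in Z00026222-1 and Z00050906-1, which share 20 bases. Neither of these probes was well above background on any WT E18.5 array. The WT E18.5 values of Z00026222-1 included the recurring -0.04 and 0.09, so that gap has no firm size. Z00075336-1 and Z00077063-1 changed by -2.31 and -2.29 in WT and by -3.30 and -3.35 in KO. Z00022872-1 and Z00055094-1, with 56 shared bases, changed by -1.63 and -1.67 in WT and by -2.12 and -2.24 in KO. The 14 partners that were not members all fell in WT and in KO as well, 10 of them by at least 1.5 in WT. Of detected probes, 3.56% fell by at least 1.5 in WT, and in single replicates 57.5% to 58.3% fell in WT and 58.1% to 60.5% in KO. The 14 belong to only 9 members, and the partners of Z00075782-1, all among the 10, have nearly the same sequence. Z00067695-1 was well above background on 0 WT E14.5 arrays and rose by 0.30 in the first WT step. Paired probes may read 1 transcript, so members are not independent of each other.

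**Figure D5:**
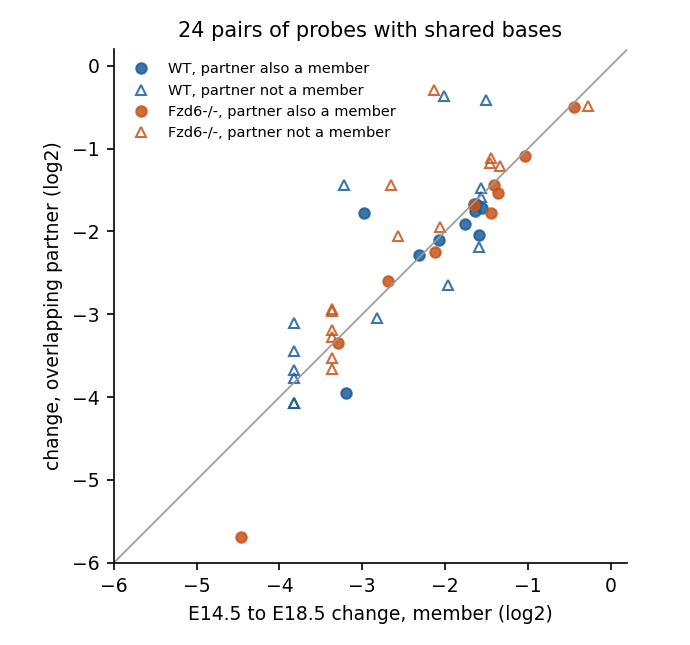
Each point is 1 of 24 pairs of probes with at least 20 shared bases, with the log2 change from E14.5 to E18.5 of the member (horizontal) and of its partner (vertical), for WT and Fzd6-/-; filled points are pairs of members, open triangles have a partner outside the rule, and the line marks equal change. All points lie below 0 on both axes.

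Z00075782-1 had partners with like values that fell outside the limit on the difference. It stood at 2.13, 1.64 and 1.72 at WT E14.5, 0.41, 0.93 and -0.15 at E16.5 and -2.96, -1.51 and -1.52 at E18.5, and at 1.09, 0.86 and 0.96, then 0.92, 2.06 and 1.06, then -2.28, -2.06 and -2.87 in KO. The KO minus WT difference was -0.86 at E14.5, without overlap, and 0.95 at E16.5, where the lowest KO value, 0.92, lay under the highest WT value, 0.93. Neither genotype was well above background at E18.5. Its 6 partners shared 39 to 51 bases with it, each differed from it at 1 to 3 aligned bases outside the shared run, and all were outside the rule: they changed by -4.07 to -3.11 in WT, and their KO minus WT differences were -1.04 to -0.87 at E14.5 and 1.09 to 1.34 at E16.5.

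Z00062305-1 and Z00025860-1 have identical sequences and gave WT changes of -1.60 and -2.19. Z00025860-1 was left out because its KO minus WT difference at E18.5 was 1.08, against 0.79 for the member. Over the 13 pairs of detected probes with identical sequences the WT changes differed by a median of 0.04, and this pair had the widest gap, 0.59. Z00031510-1 was the only member whose sequence overlapped the reverse complement of another probe, Z00061608-1.

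Just inside the limit on the WT fall lay Z00025156-1, Z00042454-1 and Z00060818-1, with changes of -1.501, -1.502 and -1.502, and just outside lay Z00044139-1, Z00005705-1 and Z00035197-1, with -1.498, -1.498 and -1.495. Without the limit on KO minus WT, 723 probes met the other conditions. Of the 308 so left out, KO was at least 1 above WT in 19 at E14.5, 111 at E16.5 and 163 at E18.5, and at least 1 below in 59, 16 and 28.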

How the data were processed

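The members and all lists were chosen with earlier results of these data known. Scanner output was deposited for each array and, per the file headers, comes from Agilent Feature Extraction 9.5.1.1. It gives mean spot and local background intensity, processed intensity (background-subtracted and dye-normalized by the software), a log10 ratio of Cy5 over Cy3, which was not used for the values, and marks for spots well above background. RNA was extracted with Trizol and labelled with an Agilent low-input kit, per the labels' protocols. The authors' deposited value table (log10 scale, 25030 probes) states neither scale, centring nor direction. With probes centred it followed log10 of processed Cy3 over Cy5 at r above 0.999, so scale and direction come from that comparison, and the origin of a constant added per probe is not known. The medians of its columns, replicates in order, were 2.45, 2.45 and 2.45 (WT E14.5), 2.48, 2.48 and 2.47 (WT E16.5), 2.47, 2.47 and 2.47 (WT E18.5), 2.44, 2.44 and 2.46 (KO E14.5), 2.47, 2.46 and 2.47 (KO E16.5), and 2.47, 2.46 and 2.48 (KO E18.5). It served as an alternative only.

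The rule was applied to log2 ratios of the deposited processed intensities, without control spots, averaged per probe. Calls came from R 4.3.3 with limma 3.58.1: normexp (offset 50) on mean and background intensities, loess within each array, control spots (1417 of 43451) and 4 to 34 outlier spots per array left out, 1 mean per group over all 18 arrays, eBayes, two-sided. A probe was tested if its Cy3 spots were marked well above background throughout at least 1 group and with enough values in every group, which left 27989. The procedure was tested on simulated data. Dyes were not swapped. Promoter sequences were RefSeq's.

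Named probes were the 10 largest WT falls among members detected on all 9 WT arrays and the 5 largest among others, the 3 nearest the limit on each side, the 3 highest and lowest in KO minus WT at each stage, the 5 highest over the reference at WT E14.5, and members sharing at least 20 bases with another probe. Gene lists and cell type markers were not used, for want of names. Pairing of arrays by replicate number was checked through the correlation of deviations from group means: at E16.5 the numbers did pair WT with KO arrays (r = 0.29, 0.51 and 0.43 for numbers 1, 2 and 3), a hint from the data and not from the labels. They did not at E14.5 (r = -0.22, 0.24 and 0.08) or E18.5 (r = -0.16, -0.07 and -0.0014). Alternatives tried were the background correction, the normalization, processed signals, the value table, the dim filter, the arrays in the fit, slide and replicate blocks, the first scan batch alone, other limits in the rule and leaving out each array.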

Additional observations from a re-analysis of the deposited data

Results flagged for a closer look

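In 16 members the KO minus WT difference changed from E14.5 to E18.5 by limma's test of that difference (adjusted p under 0.05), 1 upwards and 15 downwards, where 4.78% and 1.84% of tested probes were called in these directions. The rule bounds the difference at both stages, so the count is no evidence about the members. Of the members named, 5 were among them. The KO minus WT difference at E18.5 less that at E14.5, on normexp and loess log2 ratios, was -0.77 for Z00020984-1, -0.98 for Z00023674-1, -0.998 for Z00074919-1, -1.12 for Z00075336-1 and -1.10 for Z00077063-1. The last 4 are 2 pairs of overlapping probes. Z00074919-1 was not well above background on any E18.5 array of either genotype, and Z00023674-1 was on 2 of 3 WT and 1 of 3 KO E18.5 arrays, so their E18.5 ratios, and these differences, have no firm size. In processed signals Z00077063-1 stood at 0.13, 0.26 and 0.31 in WT and 0.85, 0.92 and 0.82 in KO at E14.5, and at -2.15, -2.06 and -1.96 in WT and -2.83, -2.58 and -2.05 in KO at E18.5. KO was thus wholly above at the first stage and mostly below at the last.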

How the results depend on the processing

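The count of members called lower in KO from E14.5 to E18.5 stayed within 1.5 times of 359 under every alternative run, and other counts did not. On the deposited value table that count was 256, where only 267 of the 415 members were tested. The rule gave 213 members on normexp and loess ratios, of which only 124 were among the 415, 637 with a fall limit of -1.3, 154 with -2 and 723 without the limit on KO minus WT. With loess the E16.5 median difference was 0.25 in place of 0.42, and 91 of the 124 WT and KO changes of the 62 named members moved by over 1 SD. The WT change reversed there for Z00060181-1 (0.11) and Z00061760-1 (0.026). Without background subtraction the calls between genotypes numbered 68 at E14.5 (39 higher, 29 lower), 119 at E16.5 and 37 for the difference that changes with stage (14 higher, 23 lower). On processed signals they were 38 at E18.5 (19 and 19) and 25 for the changing difference. On the deposited value table they were 29 at E18.5 (16 and 13), out of 267 members tested. With median centring limma called 2 at E14.5 (1 higher, 1 lower) and 3 at E16.5. It called 0 at E18.5 and 0 for the changing difference, where 25 and 36 members had unadjusted p under 0.05. Without the dim filter 11 were called at E18.5. A fit of only the groups compared called 87, 40 and 1 at the 3 stages, and the first scan batch alone called 6, 32 and 1, with 1 for the changing difference; the cause was not tested in any of these. Read in replicate 2, 99.58% of chosen probes fell in WT, against 58.26% of detected probes. Leaving out 1 array gave 372 to 494 members, 329 to 368 called lower in KO, 12 to 48 called at E14.5, 39 to 108 at E16.5, 6 to 63 at E18.5, 9 to 46 for the changing difference, and an E16.5 median of 0.31 to 0.49. With the replicate block the calls were 357 lower in KO, 33, 77 and 15 between genotypes and 16 for the changing difference, and it changed no other count by over 1.5 times. Signal near background limits the size of any fall among the 61 members not well above background on a WT E18.5 array.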
